A study of Mus musculus with 3 samples.

Results

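The imprinted genes described here are 35 genes of the mouse that are expressed from only the maternal or only the paternal copy in at least some tissues. They were chosen by name, and all 35 have a row among the 49452 gene rows of each file. By the rule used here a gene was called expressed when its deposited value reached 1 FPKM (fragments counted per kilobase of transcript length and per M fragments mapped, where M stands for mega) in at least 1 library. By that rule 15 of the 35 members were expressed and 20 were not. Among all 49120 genes with a symbol, 26.6% (13050) reached 1 FPKM in a library. Of the 21725 protein-coding genes 49.3% (10703) did, against 14 of the 29 protein-coding members. Of the 6 non-coding members 1 was expressed. The share among genes that are not protein-coding was not computed, but by these counts it lies below both shares given.

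Most imprinted genes are controlled by a DNA methylation mark set in the egg or the sperm, which in many cases leads to silencing of one parental copy, directly or through a non-coding RNA. Most such genes lie in clusters under one control element. Many act on growth: in general, paternally expressed members such as Igf2 promote it and maternally expressed ones such as Cdkn1c restrain it. Many are also known to be switched down after birth, and several have been studied in tissue stem cells, among them those of blood, muscle and brain. The files do not separate the parental copies, so the values are totals over both.

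The mice were wild-type C57BL/6 animals at 7 weeks, when the hair follicles of the back are in their second telogen, the resting phase. Back-skin epidermis was freed with thermolysin, and its cells were sorted on the surface proteins CD34 and alpha 6 integrin (Itga6). The S cells were CD34-positive with low Itga6 and are the suprabasal bulge stem cells, the B cells were CD34-positive with high Itga6 and are the basal bulge stem cells, and the N cells were CD34-negative, the non-stem cells of the epidermis. Stem cells of the hair follicle rest in the bulge, below the sebaceous gland. Each population's RNA was a pool from 4 mice and was amplified before sequencing, so there was 1 library per population. No difference below has a replicate error or a test, and each describes these libraries only.

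Depth, read from the steps between low values, was 31.4 M fragments in S, 32.7 M in B and 35.4 M in N. Levels are given as scaled FPKM, the deposited values divided by median-of-ratios factors of 0.923 for S, 0.981 for B and 1.10 for N. Folds are ratios of scaled FPKM, and the interval after a fold is a 95% exact counting interval. It rests on the fragments estimated from depth and the longest annotated transcript, which is an upper estimate, and covers counting error only, not amplification or differences between mice. The sort marker Cd34 was at 215 scaled FPKM in S, 144 in B and 0.201 in N. Itga6 was at 33.1 scaled FPKM in S, 49.3 in B and 115 in N, and the basal keratin gene Krt14 at 12.7 in S, 277 in B and 588 in N. That is the order of Ascl2, Plagl1 and Rasgrf1 below. Of the other basal keratinocyte markers, Trp63 had the same order (107 in S, 126 in B and 138 in N). Krt5 was highest in S (959 in S, 810 in B and 818 in N), and Itgb4 was lowest in N (22.1 in S, 23.7 in B and 15.05 in N). The 5 markers together summed to 1134 in S, 1286 in B and 1674 in N. Of 10 fibroblast and dermal papilla markers 3 reached 1 scaled FPKM, and their summed level was 34.3 in S, 23.4 in B and 0.843 in N, most of it collagen VI in S and B (Col6a1 at 25.9 in S, 13.9 in B and 0.242 in N), while Col1a1 was at most 0.115 and Dpt at most 0.0575. Melanocyte markers summed to 35.4 in S, 17.6 in B and 2.40 in N, of which Mitf made 34.4, 16.4 and 2.08, with Pmel at most 0.321 and Mlana at most 0.132. Of the endothelial, pericyte and smooth muscle, adipocyte and muscle fibre markers 0 reached 1 scaled FPKM. Markers summed higher in N for T and NK cells (1.89 in S, 6.05 in B and 19.9 in N, most of it Thy1 in B and N), for myeloid and Langerhans cells (16.1, 10.4 and 22.3) and for Schwann and neural cells (6.06, 6.18 and 12.5, most of it Erbb3). The part of these RNAs in the levels below was not tested. In sorted bulk samples fewer cells of a type and less RNA per cell cannot be told apart.

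Upstream sequence is shown for Peg3 and Airn, which had the largest log2 ratios of scaled FPKM plus 1 among the expressed members with a RefSeq promoter entry, and for Ascl2, which went the other way. Each is the 250 bases before the RefSeq start (GRCm38.p6, the mm10 assembly), 5′ to 3′ on the strand of the gene, with CpG pairs, the targets of DNA methylation, in capitals.
Peg3, chr7:6730420-6730669, minus strand: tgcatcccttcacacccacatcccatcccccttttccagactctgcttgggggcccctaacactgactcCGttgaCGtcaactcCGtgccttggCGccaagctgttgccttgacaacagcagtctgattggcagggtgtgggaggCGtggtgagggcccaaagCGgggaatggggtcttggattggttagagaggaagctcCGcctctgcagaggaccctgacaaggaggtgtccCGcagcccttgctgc
Airn, chr17:12741061-12741310, plus strand: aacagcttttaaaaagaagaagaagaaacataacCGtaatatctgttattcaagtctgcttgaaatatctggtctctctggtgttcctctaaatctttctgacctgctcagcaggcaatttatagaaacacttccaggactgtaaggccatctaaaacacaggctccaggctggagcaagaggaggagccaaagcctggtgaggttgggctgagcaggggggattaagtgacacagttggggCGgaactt
Ascl2, chr7:142969265-142969514, minus strand: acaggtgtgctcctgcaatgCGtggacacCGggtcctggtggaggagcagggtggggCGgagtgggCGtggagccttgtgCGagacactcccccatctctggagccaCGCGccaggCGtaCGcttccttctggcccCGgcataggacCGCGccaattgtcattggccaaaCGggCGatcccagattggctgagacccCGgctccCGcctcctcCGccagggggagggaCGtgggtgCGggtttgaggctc
The Ascl2 window held 19 CpG pairs, a number reached by 19.7% of the 32851 windows of the table. The Peg3 window held 8, reached by 43.0%, and the Airn window 2, reached by 81.2%. The start of Usp29, on the opposite strand, lies inside the Peg3 window, with 163 bases between both starts, so these genes leave the same stretch of DNA in opposite directions. The hexamer TGCCGC, the core recognised by the imprint-protecting zinc finger protein ZFP57 when methylated, was searched on both strands and was in 0 of these 3 windows. Of the 45 windows of the 30 members with an entry, 7 windows of 6 members held it (Meg3, Mest, Nap1l5, Plagl1, Zdbf2 and Zim1; the 2 of Mest overlap each other), which is 15.6% of them against 8.68% of all windows. The hexamer holds a CpG, and the median window of a member had 10 CpG pairs, against 6 over all windows. Of these 6 members Plagl1 alone was expressed.

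**Figure D1:**
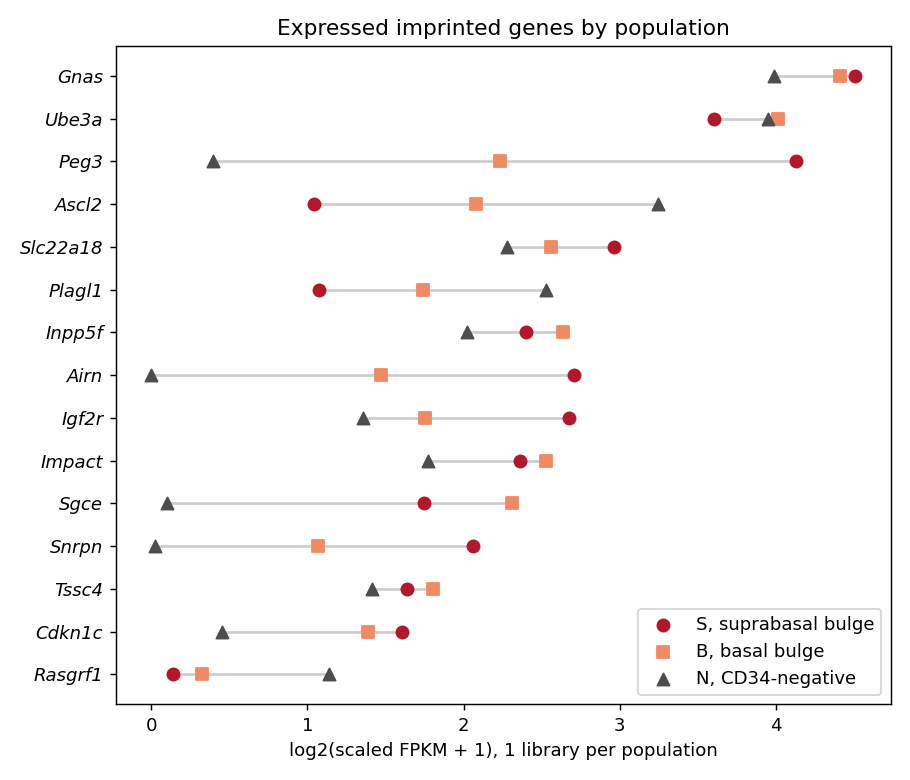
Level of each of the 15 expressed imprinted genes in S (circle), B (square) and N (triangle), as log2 of scaled FPKM plus 1, with 1 library per point. Peg3 spans the widest range, at 16.5 scaled FPKM in S and 0.314 in N, while Ascl2, Plagl1 and Rasgrf1 have N on the right.

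Between suprabasal bulge cells and CD34-negative cells, the zinc finger gene Peg3, the dystrophin-complex gene Sgce, the splicing gene Snrpn, the cell cycle inhibitor gene Cdkn1c, the receptor gene Igf2r and the non-coding RNA Airn were at least 2-fold higher in S. Ascl2 and Plagl1, both transcription factor genes, were at least 2-fold lower in S. The size rule was a log2 ratio of scaled FPKM plus 1 of at least 1 in size, over genes with a mean of at least 1 scaled FPKM. Of the 11575 genes measured, 9.56% were higher and 10.9% lower, and of the 14 members measured 6 were higher and 2 lower. In basal bulge cells Airn, Peg3, Sgce and Snrpn were higher than in N, 4 of 14 against 7.27% of all genes, and Ascl2 was lower, 1 of 14 against 7.10%. Between the bulge layers Airn and Peg3 were higher in S, 2 of 14 against 3.89%, and Ascl2 was lower in S, 1 of 14 against 5.93%. The median log2 ratio over the 14 members was 0.64 for S over N, 0.52 for B over N and -0.04 for S over B, beside 0.02, -0.04 and 0.06 over all genes. With the values as deposited, 7.39% of all genes were higher and 14.5% lower in S than in N, and 6.19% higher and 9.46% lower in B than in N. Rescaling to the same total put 1.84% higher and 71.5% lower in S than in N, and 0.675% higher and 84.4% lower in S than in B, and the same total without mitochondrial genes put 10.2% higher and 4.67% lower in B than in N. A member low in every population could not pass the filter, so these counts are a description of the 14 and not of all 35. Both comparisons with N use the same N library, and 5 of the 6 members higher in S lay below 1 scaled FPKM there.

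**Figure D2:**
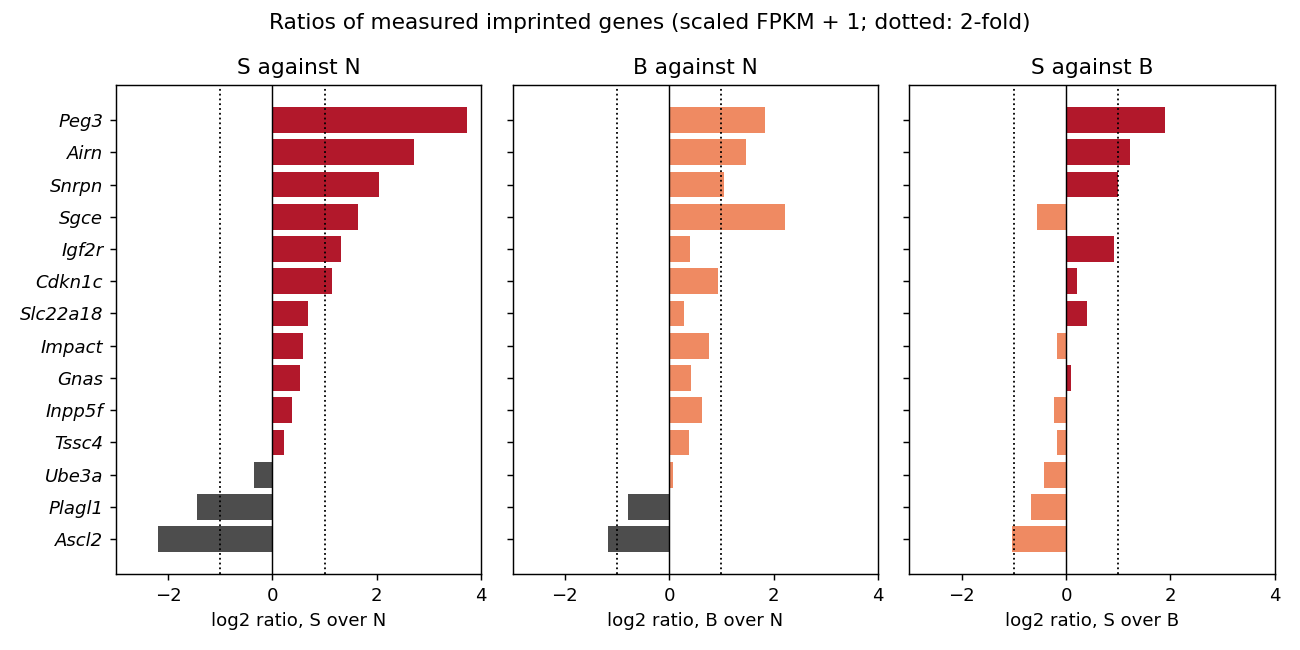
Log2 ratio of scaled FPKM plus 1 for the 14 measured imprinted genes in S against N, B against N and S against B, with dotted lines at a 2-fold difference and the bar coloured by the higher population. Peg3 has the longest bar in S against N (3.74) and in S against B (1.90), Sgce in B against N (2.21), and Ascl2 is the one member past the line towards the second population in all 3.

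Peg3 encodes a zinc finger DNA-binding protein linked to growth, maternal behaviour and cell death, and marks some adult stem cells of other tissues (ENSMUSG00000002265, chromosome 7, 6703892 to 6730431). It was at 16.5 scaled FPKM in S, 3.70 in B and 0.314 in N. The 3 libraries were thus in clear steps, with S highest. The level was 52.5-fold higher in S than in N (43.3 to 64.2), 11.8-fold higher in B than in N (9.64 to 14.5) and 4.46-fold higher in S than in B (4.16 to 4.78).

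Usp29, which encodes a ubiquitin-specific protease and starts within the sequence shown above, did not share these steps. Its deposited FPKM was 0.537 in S, 0.995 in B and 0.925 in N, so that its highest value was just short of the bound for expression. Zim1, a maternally expressed zinc finger gene of the same cluster, was at 0.0739 deposited FPKM in S, 0.330 in B and 0.00717 in N, the last resting on at most about 2 fragments. Of this cluster, Peg3 alone reached 1 FPKM.

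Cdkn1c, the cyclin-dependent kinase inhibitor of the imprinted set, which keeps blood stem cells at rest (ENSMUSG00000037664, chromosome 7, 143458339 to 143461050), was at 2.04 scaled FPKM in S, 1.62 in B and 0.369 in N. Both bulge populations were above N, by 5.53-fold for S (3.61 to 8.76) and 4.39-fold for B (2.85 to 7.00), although with the pseudocount the log2 ratio of B over N, 0.94, missed the size rule. S and B did not differ beyond counting error, at a ratio of 1.26 (0.952 to 1.67).

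Ascl2 encodes a basic helix-loop-helix factor that sets stem cell identity in the intestinal crypt and is needed in the placenta (ENSMUSG00000009248, chromosome 7, 142966829 to 142969264). It was at 1.06 scaled FPKM in S, 3.22 in B and 8.47 in N. The order was the reverse of that of Peg3, with N highest. N was 7.97-fold above S (5.94 to 10.9) and 2.63-fold above B (2.21 to 3.15), and B was 3.03-fold above S (2.19 to 4.26).

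Plagl1, a zinc finger factor of the imprinted gene network that halts the cell cycle (ENSMUSG00000019817, chromosome 10, 13060504 to 13131694), had the same order. Its level was 1.11 scaled FPKM in S, 2.34 in B and 4.77 in N. The level in N was 4.31-fold above that in S (3.65 to 5.10) and 2.04-fold above that in B (1.81 to 2.29), the second of which missed the size rule with the pseudocount. Ndn, whose protein necdin restrains the cell cycle in neurons and blood stem cells, was not expressed, at 0.0580 deposited FPKM in B, 0.0994 in N and listed at 0 in S.

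Among genes of the growth factor axis, Igf2r was the one expressed member. It encodes the receptor that takes up the growth factor IGF2 for destruction and carries enzymes to the lysosome (ENSMUSG00000023830, chromosome 17, 12682406 to 12769664). Igf2r was at 5.40 scaled FPKM in S, 2.37 in B and 1.56 in N, so that S stood above the other two. The difference was 3.46-fold over N (3.13 to 3.83) and 2.28-fold over B (2.08 to 2.50). Airn, the paternally expressed RNA that starts inside Igf2r on the opposite strand and silences it on that copy, was at 5.54 scaled FPKM in S and 1.78 in B and is listed at 0 in N. S was 3.11-fold above B (2.39 to 4.08), and no fold is given over N. The rows of Airn and Igf2r overlap from 12741311 to 12769664 on chromosome 17, and the counting is not stated to use strand, so reads of both genes there cannot be told apart.

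Igf2 itself, the fetal growth factor, stayed under 1 FPKM, at 0.00671 deposited FPKM in S, 0.520 in B and 0.0229 in N. The B value rests on at most about 80 fragments, against 1 in S and 4 in N. H19, the maternally expressed RNA of the same cluster, was at 0.481 deposited FPKM in S and 0.131 in B and is listed at 0 in N. These neighbours were thus highest in different bulge layers, both at low level. Grb10, which encodes an adaptor that damps insulin and IGF receptor signals, was at 0.247 deposited FPKM in S, 0.758 in B and 0.193 in N. Phlda2, a pleckstrin domain gene that restrains placental growth, was at 0.418 deposited FPKM in S, 0.549 in B and 0.683 in N. Dlk1, a Notch-related membrane protein gene that holds back differentiation, was at 0.0245 deposited FPKM in S, 0.274 in B and 0.656 in N.

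Signalling members were led by Gnas, which encodes the stimulatory G protein alpha subunit that couples hormone receptors to cyclic AMP (chromosome 2, 174284320 to 174346744). Gnas was the most abundant member in each population, at 21.7 scaled FPKM in S, 20.2 in B and 14.8 in N. All 3 populations lay within 2-fold, at 1.47-fold in S over N (1.38 to 1.55) and 1.37-fold in B over N (1.29 to 1.45). A gene model on the opposite strand, Gm20721, lies within the Gnas row and had 47.2 deposited FPKM in S, 54.4 in B and 38.6 in N, so part of the reads of this locus may stand in either row. Inpp5f, a phosphoinositide phosphatase gene, was at 4.28 scaled FPKM in S, 5.23 in B and 3.05 in N. The Ras exchange factor gene Rasgrf1 reached 1 FPKM in N alone, at 0.101 scaled FPKM in S, 0.252 in B and 1.20 in N. N was 11.9-fold above S (6.93 to 22.1) and 4.77-fold above B (3.37 to 6.92), but the mean over the 3 libraries missed the filter of the size rule. Nnat, a small membrane protein gene of brain development, was at most 0.332 deposited FPKM, in B.

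For RNA and translation, Snrpn, which encodes the spliceosome protein SmN (ENSMUSG00000102252, chromosome 7, 59982495 to 60140219), was at 3.17 scaled FPKM in S, 1.09 in B and 0.0180 in N. The N value rests on about 1 fragment. The ratio was 177 for S over N (31.3 to 7011) and 61.0 for B over N (10.6 to 2440.1), and S was 2.90-fold above B (2.20 to 3.85), just short of the size rule with the pseudocount. The row shares its region with that of Gm38393 (0.921 deposited FPKM in S, 0.724 in B and 0.548 in N) and with that of Snurf, which is made from the same transcript (0.570 in B, listed at 0 in N and near 0 in S). Part of the reads of this locus may thus stand in any of these rows, and the folds given are those of the Snrpn row alone. Impact, a regulator of the translation kinase GCN2, was at 4.13 scaled FPKM in S, 4.77 in B and 2.41 in N. It was 1.71-fold higher in S than in N (1.49 to 1.98) and 1.98-fold higher in B (1.73 to 2.27). Tssc4, known in human cells as an assembly factor of spliceosome particles, was at 2.11 scaled FPKM in S, 2.49 in B and 1.67 in N, and the S level differed from neither of the others beyond counting error.

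Ubiquitin pathway members had 1 expressed gene of 5. Ube3a, the ubiquitin ligase gene whose loss causes Angelman syndrome, was at 11.1 scaled FPKM in S, 15.2 in B and 14.4 in N. The range was under 2-fold, with S lowest, and B and N changed places with the scaling, at 14.9 deposited FPKM in B and 15.9 in N. The antisense transcript Snhg14, which silences the paternal copy of Ube3a in neurons, overlaps the end of its row and was at 7.28 deposited FPKM in S, 8.75 in B and 7.66 in N. Magel2, a ubiquitin ligase regulator gene, is listed at 0 in all 3 libraries. Mkrn3, a ring finger ligase gene tied to the timing of puberty, and Asb4, an ankyrin repeat gene, were at most 0.0281 deposited FPKM.

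Of the remaining members, Sgce, which encodes epsilon-sarcoglycan of the dystrophin-associated membrane complex (ENSMUSG00000004631, chromosome 6, 4674350 to 4747207), was at 2.36 scaled FPKM in S, 3.97 in B and 0.0721 in N. Here B was highest and N stood far below both. Sgce was 32.8-fold higher in S than in N (18.5 to 64.1) and 55.0-fold higher in B than in N (31.3 to 107), and S stood at 0.595 of B (0.516 to 0.686). Its neighbour Peg10, a gene derived from a retrotransposon that the placenta requires, starts next to Sgce on the opposite strand and was not expressed, at 0.296 deposited FPKM in S, 0.224 in B and 0.0464 in N. Slc22a18, an organic cation transporter gene, was at 6.80 scaled FPKM in S, 4.89 in B and 3.86 in N, 1.76-fold higher in S than in N (1.48 to 2.098). Mest, a hydrolase-like gene of embryonic mesoderm, was at most 0.521 deposited FPKM, in B. Nap1l5 and Zdbf2 were at most 0.0365 deposited FPKM.

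The non-coding members other than Airn were not expressed by the rule. Meg3, Rian and Mirg, the RNAs of the Dlk1 cluster that host small nucleolar RNAs and microRNAs, were at most 0.0887, 0.125 and 0.0717 deposited FPKM. Meg3 was highest in N, and Rian and Mirg were highest in B and are listed at 0 in N. Kcnq1ot1, the long RNA that silences its cluster on the paternal copy, was at 0.390 deposited FPKM in S, 0.652 in B and 0.811 in N. Its annotated transcript is 93092 bp long, so that these levels correspond to at most about 1137 fragments in S, 1982 in B and 2671 in N. At the bound for expression, Rasgrf1 lay just inside, with 1.33 deposited FPKM in its highest library, and Usp29 just outside, with 0.995.

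**Figure D3:**
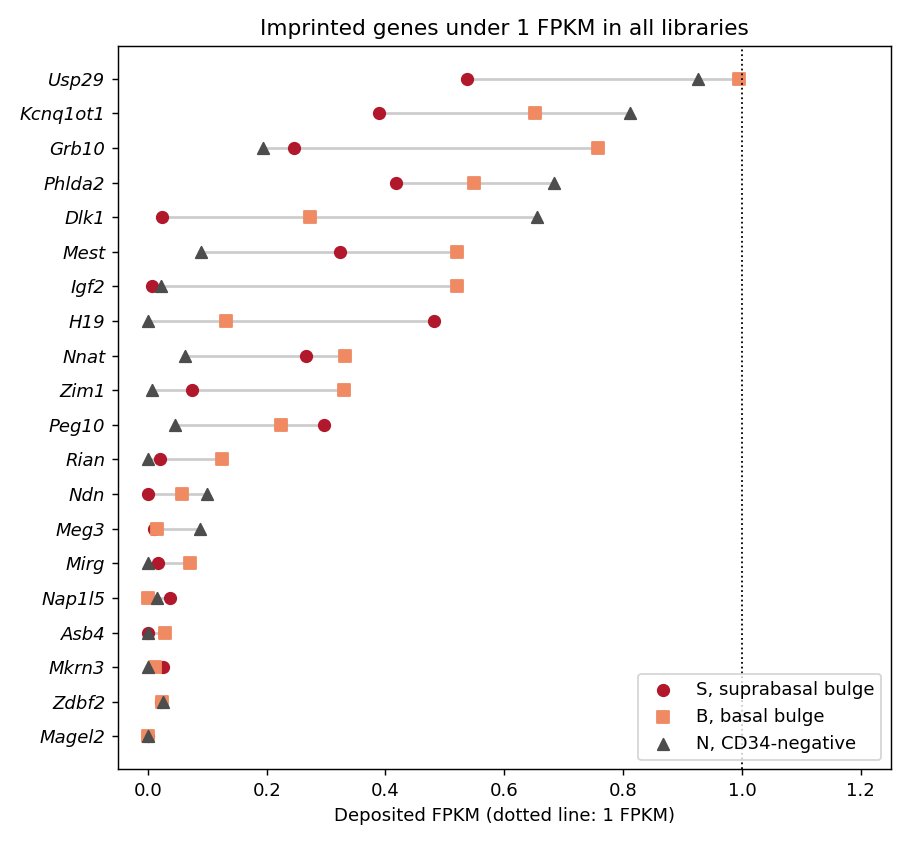
Deposited FPKM of the 20 imprinted genes that stayed under 1 FPKM in S (circle), B (square) and N (triangle), with a dotted line at 1 FPKM. Usp29 lies next to the line at 0.995 in B, Igf2 stands apart in B (0.520, against 0.00671 in S and 0.0229 in N), and Magel2 is at 0 in all 3.

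Set side by side by cluster, Igf2r and Airn had the same order, S, B, N from high to low, while other clusters were mixed. In the Kcnq1ot1 cluster on chromosome 7, 4 of 6 members were expressed, and Cdkn1c and Slc22a18 were highest in S, Tssc4 in B and Ascl2 in N. In the cluster of Snrpn and Ube3a, 2 of 5 were expressed, with Snrpn stepping down from S to B to N and Ube3a within 2-fold. Neither the 4 members of the Dlk1 and Meg3 cluster nor the pair H19 and Igf2 reached 1 FPKM. Among the 15 expressed members, Airn, Cdkn1c, Gnas, Igf2r, Peg3, Slc22a18 and Snrpn had the order S, B, N from high to low. Ascl2, Plagl1 and Rasgrf1 had the order N, B, S. The others (Impact, Inpp5f, Sgce, Tssc4 and Ube3a) were highest in B by scaled FPKM. These orders have no size bound, and Gnas was only 1.07-fold higher in S than in B. The share of all genes with each order was not computed, so the orders describe these members only.

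**Figure D4:**
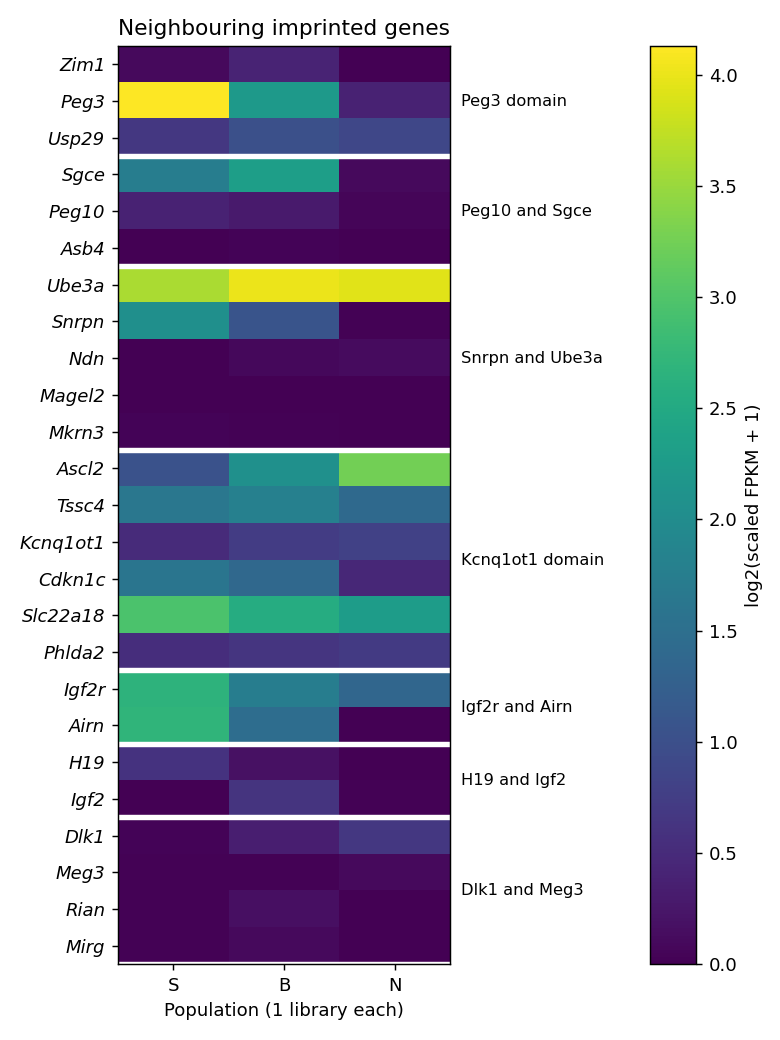
Levels of the imprinted genes of 7 clusters in S, B and N, as log2 of scaled FPKM plus 1, with genes of a cluster in the order of their position. Peg3 and Usp29, whose starts adjoin, differ in S (16.5 and 0.582 scaled FPKM), as do Sgce and Peg10 in B (3.97 and 0.228), and the rows of Dlk1, Meg3, Rian and Mirg are dark throughout.

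Genes that maintain imprints or set and remove DNA methylation were looked at as a list of 22, of which 16 were measured. In both bulge populations 0 were higher than in N and 1, Uhrf1, was lower. Of all genes measured, 9.56% were higher and 10.9% lower in S than in N, and 7.27% higher and 7.10% lower in B than in N. Between S and B, 0 passed the size rule in either direction, beside 3.89% of all genes higher and 5.93% lower in S. With 16 genes measured, such low counts lie near these shares. Uhrf1, which brings the methyltransferase to newly replicated DNA, was at 0.288 scaled FPKM in S, 0.610 in B and 4.85 in N. The genes given here, Uhrf1 included, were picked after their values were seen. Trim28, the corepressor that zinc finger proteins bring to imprints, was at 40.1 scaled FPKM in S, 37.4 in B and 42.7 in N. Dnmt1, the maintenance methyltransferase gene, was at 5.02 scaled FPKM in S, 4.08 in B and 3.43 in N. Zfp57 was at most 0.172 scaled FPKM, in N, while Zfp445, the other zinc finger gene known to protect imprints, was at 9.45 in S, 7.96 in B and 7.33 in N.

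**Figure D5:**
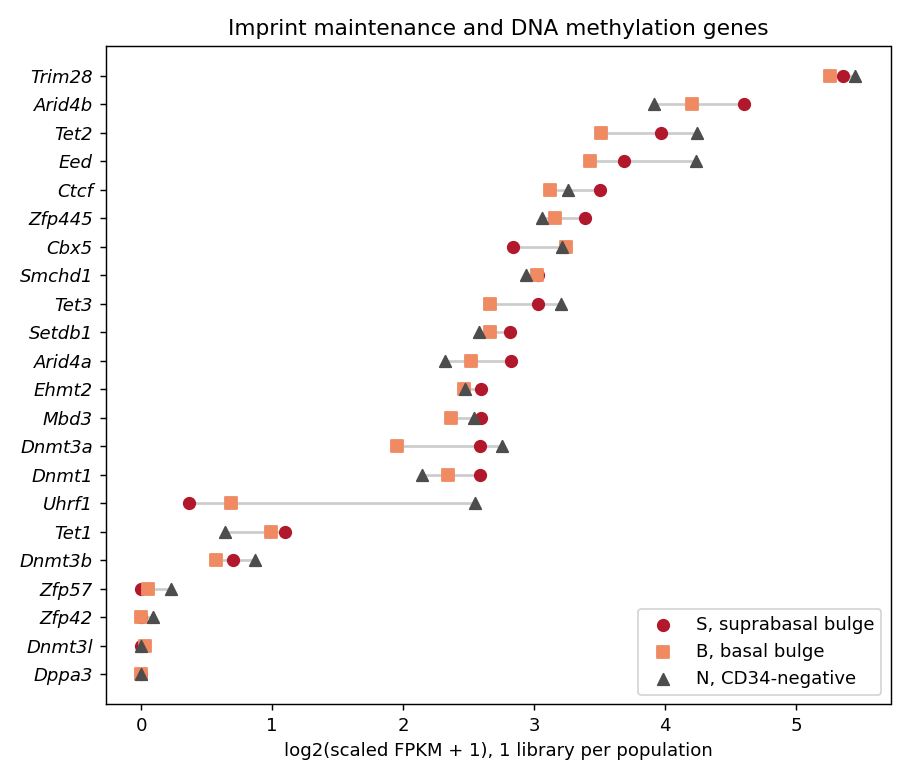
Levels of the 22 genes of imprint maintenance and DNA methylation in S (circle), B (square) and N (triangle), as log2 of scaled FPKM plus 1, with 1 library per point. Points of a gene lie close together for most genes, with Trim28 at the top near 40.1, 37.4 and 42.7 scaled FPKM, and Uhrf1 has N (4.85) apart from S and B.

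A further 46 genes are reported as imprinted or biased to one parental copy in some mouse tissue, not all of them equally well established, and 24 were measured. In S 4 were higher than in N and 2 lower, in B 4 were higher and 1 lower, and between the layers 3 were higher in S and 2 lower. In percent of all genes measured, the same rule gave 9.56 and 10.9 for S over N, 7.27 and 7.10 for B over N, and 3.89 and 5.93 for S over B. Tnfrsf23, a decoy receptor gene of the chromosome 7 imprinted region, was at 10.97 scaled FPKM in S, 4.19 in B and 1.53 in N. Smoc1, a matrix protein gene, was at 18.9 scaled FPKM in S and 1.47 in B and is listed at 0 in N. Cd81, a tetraspanin gene next to Tssc4, was at 114 scaled FPKM in S, 97.9 in B and 53.4 in N. Ctsh, a lysosomal protease gene, was at 10.5 scaled FPKM in S, 8.69 in B and 19.3 in N, and Axl, a receptor kinase gene, at 4.55 in S, 10.6 in B and 7.65 in N.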

How the data were processed

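RNA of 3 sorted populations, each pooled from 4 mice, was pre-amplified from poly(T) and random primers, made into Nextera XT libraries and sequenced in pairs of 75 bp, per the labels' protocols. The authors deposited FPKM per Ensembl gene; the header names FPKM for S and N, and for B the unit was taken from the values. Per the submitters' processing notes, TopHat2 2.0.12, Cufflinks 2.1.1, DESeq2 and mm10 were involved, without a stated role for each. Not given in the sources used here are the annotation, the strand setting and the filters on reads.

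Of the 49452 rows, 49195 were given symbols (gene name table and GENCODE M21), and rows of 1 symbol were summed. Scaling used median-of-ratios factors from the 18559 genes above 0 in all libraries. Log2 ratios used a pseudocount of 1 and understate differences of low genes. A difference was called at a log2 ratio of 1 in size among the 11575 genes with a mean of at least 1. Depth was fitted on 1-exon genes of at least 3000 bp, where 96.7% to 98.7% of those under 9.5 fragments were whole to within 0.1. Coordinates are those of the files (mm10, 1-based), and 32 of 35 members have the same ones in GENCODE M21, the others being Airn, Impact and Kcnq1ot1, whose fragment estimates are less certain. Promoters are from RefSeq. Intervals are Clopper-Pearson. Python 3.11.15, pandas 2.3.3 and scipy 1.17.1 were used. The size rule was tested on simulated data that held counting error only, not amplification or differences between mice.

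All 35 members were named. Of the other lists, up to 4 genes per list, comparison and direction past the size rule with a mean of at least 5 were to be named. The members and lists were chosen with earlier results of these data known. Alternatives were other scalings, pseudocounts and filters.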

Additional observations from a re-analysis of the deposited data

How the results depend on the processing

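Single libraries limit every result: no replicate could be left out, and no paired analysis was possible because each population has 1 library. Low members are limited by depth, since Snrpn, Zim1 and Igf2 rest on about 1 to 4 fragments in some libraries. Of 264 recomputed ratios of the 14 members, 183 stayed within their counting interval, and 12, those of Airn over N, have no interval. Another 67 moved beyond it, not counting 2-fold differences as reported that changed sign, which are given below. Some of the 67 changed sign and ended past 2-fold on the same total, such as Gnas in S over N (0.52 to -1.25). In all, 14 ratios changed sign, 12 of them after rescaling to the same total, of which the mitochondrial tRNA gene mt-Tl1 makes 71.0% in S and 0 in B and N. That rescaling shifts the median of all genes to -1.41 for S over N and -1.54 for S over B. Past 2-fold as reported and then of the opposite sign were 2, Airn in S over B (-0.32) and Igf2r in S over N (-0.071). The other 2 sign changes were Ube3a in B over N as deposited (-0.092) and Gnas in S over B without mitochondrial genes in the total (-0.027). On the same total 15 members were measured, Usp29 added. Of these, 3 were higher and 5 lower in S than in N, beside 1.84% and 71.5% of all genes. In B against N 5 were higher and 1 lower, beside 10.6% and 6.6%. In S against B 0 were higher and 11 lower, beside 0.675% and 84.4%. As deposited, the median of all genes moved to -0.18 in S over N and in B over N, and the counts of members stayed as reported. On the same total without mitochondrial genes, the median of all genes was 0.15 in S over N and 0.20 in B over N. In B against N 5 members were then higher, Cdkn1c added, and 0 lower, without Ascl2, beside 10.2% and 4.67% of all genes. A pseudocount of 0.1 gave 4 members higher and 2 lower in S than in B, beside 5.60% and 9.28% of all genes, and 5 higher in B than in N, with Cdkn1c, beside 10.8%. A mean of at least 5 left 4 members (Gnas, Peg3, Slc22a18 and Ube3a), of which 1, Peg3, was higher in each of the 3 comparisons, beside 9.32% of all genes in S over N, 6.37% in B over N and 4.08% in S over B, and 0 were lower, beside 10.4%, 7.15% and 5.82%. Upper quartile scaling gave the reported counts. Beside them, 9.19% of all genes were higher and 11.1% lower in S over N, 7.78% and 6.61% in B over N, and 3.37% and 6.54% in S over B. With no filter on the mean the counts were the same, but over 35 members and 49120 genes. Of those genes 2.52% were higher and 3.12% lower in S over N, 2% and 2.03% in B over N, and 1.07% and 1.62% in S over B. With a bound of 5 FPKM 8 members were expressed, and with 0.5 FPKM 22, and no share of all genes is given at these bounds.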

Other observations

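Genes that IGF2 and the imprinted growth regulators act on were looked at as a list of 12, of which 8 were measured. In S and in B, 1 of them was higher than in N and 2 were lower. Of all genes measured, 9.56% were higher and 10.9% lower in S than in N, and 7.27% higher and 7.10% lower in B than in N. Irs2, an adaptor of the insulin and IGF receptors, was at 12.8 scaled FPKM in S, 10.6 in B and 3.93 in N. Cdk6, a kinase of the entry into the cell cycle, was at 1.79 scaled FPKM in S, 5.75 in B and 13.3 in N. Cdk1, the mitotic kinase gene, which was chosen with its values known, was at 0.380 scaled FPKM in S, 2.17 in B and 9.05 in N. The receptor genes lay within 2-fold, with Igf1r at 4.75 scaled FPKM in S, 3.34 in B and 4.54 in N, and Insr at 11.5 in S, 7.07 in B and 7.05 in N. The ligand gene Igf1 was at most 0.0367 scaled FPKM. Between the layers 0 were higher in S and 2, Cdk1 and Cdk6, were lower, beside 3.89% and 5.93% of all genes.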
